A study of Mus musculus with 18 samples.

Results

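The comparison described here sets polysome RNA against RNP RNA in elongating spermatids, the haploid male germ cells that condense their nuclei and build the sperm tail. Its members were chosen by their labels alone and are the 3 elongating polysome libraries and the 3 elongating RNP libraries, 6 of the 18 libraries in the series. All came from testes of adult wild type C57BL/6 mice (C57BL/6 J background in the study's methods), and cycloheximide, which stops ribosomes on their mRNAs, was present during cell purification and fractionation. The other 12 libraries are the same fractions of pachytene spermatocytes and round spermatids, 6 libraries for each cell type. Cells were separated by sedimentation and judged by morphology, and by that judgement the elongating spermatids were the least pure of the cell types. The sources used here do not say which libraries share a purification or an animal, so the p values below measure only the spread between libraries, which may be technical.

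In a sucrose gradient the light fractions hold mRNAs packaged with proteins in ribonucleoprotein particles (RNPs), and the heavy fractions hold mRNAs loaded with several ribosomes (polysomes). Spermatids stop transcribing as their chromatin condenses, so the mRNAs for protamines and many tail proteins are made earlier, kept in RNPs and moved onto polysomes days later. The division of an mRNA between RNPs and polysomes is therefore commonly read as its state of storage or translation in these cells.

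The authors' file of each library lists transcripts assembled from that library alone, each with an FPKM (fragments scaled by transcript length and by the size of the library). Here the value of a gene is the sum of the FPKM of the spliced transcripts that share strand and at least 1 splice junction with the gene in the mm9 annotation (GENCODE vM1), and each library was divided by its median-ratio factor. This value is called spliced FPKM below, and a gene is listed at 0 where no such transcript was assembled, which does not show that its RNA was absent. Of 24970 annotated genes with an intron, 13448 had a value in at least 1 of the 6 libraries and 11675 reached 1 FPKM in at least 3 of them and were tested. The libraries held 51498 to 66530 assembled transcripts in polysomes and 34238 to 50480 in RNPs. The matched spliced transcripts held 9.79% to 11.1% of all FPKM in the polysome libraries and 5.37% to 8.13% in the RNP libraries. The files hold no read counts, and the depth tabulated by the study was not used here. The coverage per unit of FPKM, a constant of each file that grows with depth and read length, was 1.83 to 1.95 in polysomes and 1.71 to 2.26 in RNPs. Across genes, replicates correlated with a Pearson's r of 0.850 to 0.870 among polysome libraries and 0.800 to 0.815 among RNP libraries.

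For 6 genes the bases around 1 splice junction are shown, since all of the spliced FPKM of each gene ran through that junction. They are given 5′ to 3′ on the strand of the gene, 15 bases on each side, with the span from the first to the last base printed and the intron inside it left out, from the NCBIM37 (mm9) genome, with the bases of the second exon in capitals. The first 4 belong to the nuclear proteins that replace histones, and the last 2 to genes whose junction was assembled in all 3 RNP libraries and in none of the polysome libraries.
Prm1 (minus strand, spanning chr16:10796612-10796733): ggcggaggaggcgaaGATGCTGCCGTCGCC
Prm2 (minus strand, spanning chr16:10791713-10791847): ggcggcatcgcagagGCTGCAGAAGATCCC
Tnp1 (minus strand, spanning chr1:73061885-73062313): aacggggcgatgatgCAAGTCGCAATTACC
Tnp2 (minus strand, spanning chr16:10788172-10788372): agaggcgtagctcagGGCGAAGATACAAGT
Adam26b (minus strand, spanning chr8:44607460-44613358): tcactcaacctgatgCCCTGCCTCTATTAT
AI837181 (plus strand, spanning chr19:5425294-5425965): gagtgaaggccggagGATGGAACCAAATGA

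Polysomes of elongating spermatids held 44 genes at a higher level than RNPs and 43 at a lower level at an adjusted p under 0.05 (limma, Benjamini-Hochberg, named called below), which is 0.377% and 0.368% of the 11675 genes tested and 0.745% in all. *Ptma*, *Arih2*, *Ttll5* and *Slc2a8* were among the genes higher in polysomes, and *Akap4*, *Ybx1*, *Sord*, *Spata20* and *Ptpn4* among those lower in polysomes. The 21 genes higher in polysomes with a value in both fractions had log2 fold changes (polysome minus RNP, on the log2(scaled FPKM + 1) scale) of 1.27 to 2.68, and the 27 such genes lower in polysomes had log2 fold changes of -7.03 to -1.35. The remaining 23 and 16 were listed at 0 in all 3 libraries of the other fraction. Those 39 passed the filter only through the fraction in which they were assembled, so their calls are not independent evidence, and only their values are given below. At an unadjusted p under 0.05 there were 1270 genes higher and 979 lower, and the values of 1880 genes (16.1%) lay wholly higher in polysomes and those of 1361 (11.7%) wholly lower.

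The calls rested on all 6 libraries. Without polysome replicates 1, 2 and 3 the genes called numbered 0, 0 and 0 higher and 0, 2 and 0 lower, and without RNP replicates 1, 2 and 3 they numbered 4, 9 and 37 higher and 1, 2 and 13 lower. All 87 genes kept their direction in every one of these fits that gave them a value, and 65 of them were called in none. For the 39 genes listed at 0 in 1 fraction the direction could not turn. Only the 21 and 27 genes with a value in both fractions could have shown a change. In FPKM as deposited, without division by the library factors, the median log2 fold change of all genes was 0.81 against 0.04 here, and 2516 genes were higher and 76 lower in polysomes. The direction of all 87 genes was the same on that scale, where that of the 39 was again fixed. Of the 87 genes 48 stayed called after quantile normalization, 59 without the filter on low values, 56 with limma's robust option, 27 in a fit of all 18 libraries and 0 with the replicate number as a block. Among the genes described below with a value in both fractions, *Ybx1*, *Dennd1b*, *Gas2* and *Lin52* stayed called under the first 4 of these settings.

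**Figure D1:**
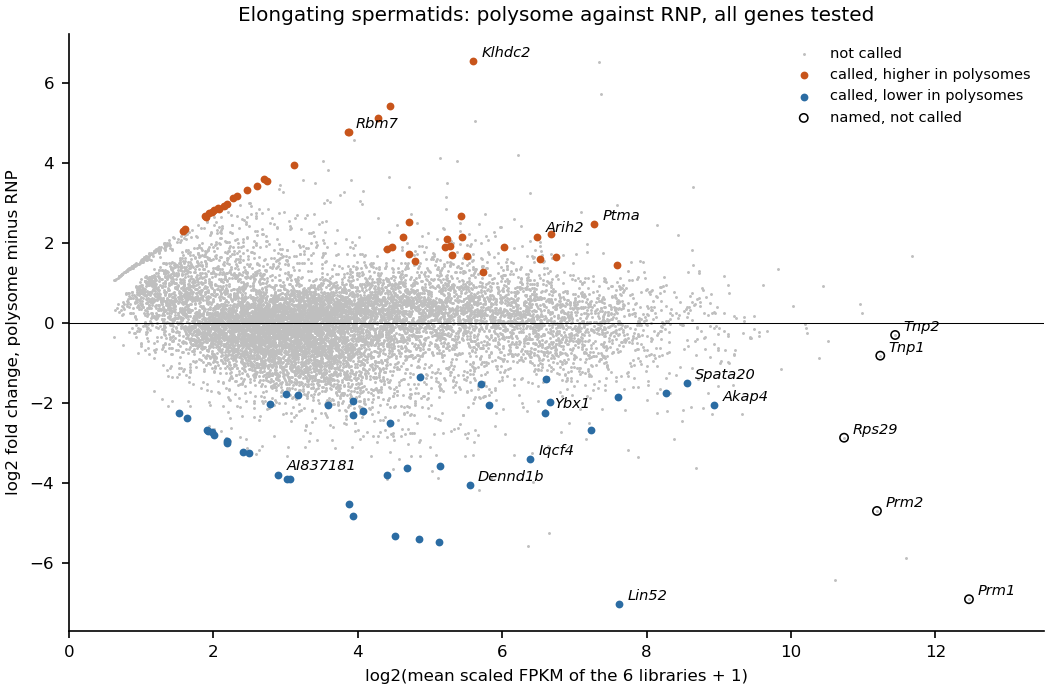
Log2 fold change (polysome minus RNP, vertical) against log2 of the mean scaled FPKM plus 1 (horizontal) for the 11675 genes tested in elongating spermatids. Filled circles mark the 44 genes called higher (orange) and the 43 called lower (blue) in polysomes, and open circles mark 5 highly abundant genes that were not called, with *Prm1* at -6.92 and *Tnp2* at -0.31.

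A second gene value was used as an alternative, because a gene can be present as unspliced pieces. It weights every assembled transcript that overlaps the exons of a gene by the length of the overlap, and it is called length-weighted FPKM below. Of the 44 genes higher in polysomes 32 had enough length-weighted FPKM to be tested, 28 had the same direction and 16 were called again. Of the 43 genes lower in polysomes 41 were tested, 39 had the same direction and 28 were called again. The 6 genes of opposite direction were *Klhdc2*, *Nemf*, *1110034A24Rik*, *Gm16347*, *Mrpl53* and *Mon1b*. When only transcripts with the whole annotated intron chain were summed, 28 of the 87 genes had a value, 15 kept their direction and 13 reversed it, 11 of these with an adjusted p under 0.05 in the other direction (limma). Over all 10987 genes tested the length-weighted value called 346 higher (3.15%) and 406 lower (3.7%), or 6.84% in all. The 16 and 28 genes called with both values are described first. Of these, 4 and 13 were listed at 0 in spliced FPKM in all 3 libraries of the other fraction. The length-weighted value contains the same spliced transcripts, so it is not an independent measure.

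*Akap4*, *Sord* and *Spata20* were the most abundant genes called lower in polysomes with both values. *Akap4*, the main structural protein of the fibrous sheath (X, from 6644645 to 6655735), had 231, 147 and 190 scaled FPKM in the polysome libraries, against 1009, 600 and 766 in the RNP libraries. Every RNP library lay above every polysome library, and the log2 fold change was -2.05 ± 0.29 (SE, adjusted p = 0.0485 from limma). *Sord*, the sorbitol dehydrogenase that makes fructose, had 171, 123 and 124 scaled FPKM in polysomes, against 460, 414 and 550 in RNPs (-1.77 ± 0.23 SE, adjusted p = 0.0449 from limma). *Spata20*, a thioredoxin-like protein of spermatids, had 217, 191 and 176 in polysomes, against 621, 466 and 589 in RNPs (-1.51 ± 0.21 SE, adjusted p = 0.0485 from limma). The fractions did not overlap for these 3 genes, but none of the calls held after quantile normalization (adjusted p = 0.0506 for *Akap4*, 0.0662 for *Sord* and 0.0745 for *Spata20*, limma) or in the fit of all 18 libraries (0.778, 0.517 and 0.816).

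*Ybx1*, a cold-shock-domain protein that packages mRNAs into RNPs (chromosome 4, from 118950586 to 118967209), was itself lower in polysomes. It had 38.6, 28.8 and 29.9 scaled FPKM in polysomes, against 122, 161 and 195 in RNPs (-2.25 ± 0.25 SE, adjusted p = 0.0271 from limma), and the length-weighted fold change was -2.38 (adjusted p = 0.00706 from limma). The part of processed copies of the gene in these values was not tested. Its relatives were not called. *Ybx2*, the germ cell member of the family, had 254, 284 and 350 in polysomes, against 307, 254 and 345 in RNPs (adjusted p = 0.954 from limma), and *Csda* had 249, 264 and 280, against 317, 361 and 430 (-0.47, adjusted p = 0.273 from limma).

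Signalling genes formed another part of the group. *Ptpn4*, a tyrosine phosphatase, had 67.8, 84.3 and 99.3 scaled FPKM in polysomes, against 310, 288 and 314 in RNPs (-1.86 ± 0.21 SE, adjusted p = 0.0280 from limma). *Cdc14a*, a dual-specificity phosphatase, had 24.2, 18.6 and 19.2 in polysomes, against 112, 91.9 and 66.0 in RNPs (-2.05 ± 0.26 SE, adjusted p = 0.0431 from limma). *Dennd1b*, an activator of Rab GTPases, had 2.55, 8.92 and 3.17 in polysomes, against 94.7, 76.8 and 88.7 in RNPs (-4.05 ± 0.42 SE, adjusted p = 0.0235 from limma). For *Ptpn4* and *Dennd1b* the length-weighted fold changes were smaller, at -0.84 and -1.67, but still called (adjusted p = 0.0318 and 0.0195 from limma).

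Several genes lower in polysomes are known mainly from the testis or are little described. *Iqcf4*, an IQ-motif gene, had 23.5, 6.57 and 13.9 scaled FPKM in polysomes, against 191, 149 and 113 in RNPs (-3.41 ± 0.46 SE, adjusted p = 0.0478 from limma). *Ms4a5*, of a family of proteins that span the membrane, had 62.3, 23.7 and 38.2 in polysomes, against 306, 249 and 212 in RNPs (-2.68 ± 0.37 SE, adjusted p = 0.0485 from limma). *Gas2*, a binding partner of the cytoskeleton, had 5.54, 5.05 and 2.84 in polysomes, against 52.6, 84.4 and 55.9 in RNPs (-3.58 ± 0.32 SE, adjusted p = 0.0201 from limma). The greatest fold among the called genes on the log2(scaled FPKM + 1) scale belonged to *Lin52*, a subunit of the MuvB complex that controls cell cycle genes. It had 0.915, 1.32 and 1.80 in polysomes, against 589, 94.3 and 489 in RNPs (-7.03 ± 0.71 SE, adjusted p = 0.0226 from limma). With 0.1 added in place of 1, *Lin52* had -7.75, and *Gm15514* had -7.86 but was not called (adjusted p = 0.0637 from limma). Some genes listed at 0 throughout 1 fraction had larger fitted values there, such as *Klhdc2* at 9.86. RNP replicate 2 stood well below the other RNP libraries for *Lin52* but far above every polysome library. In length-weighted FPKM its values were 0.769, 1.11 and 1.64 in polysomes, against 31.4, 11.7 and 29.2 in RNPs.

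Other genes were assembled in all RNP libraries and listed at 0 in all polysome libraries, so they have no fold change. *AI837181*, whose junction is printed above, was the most even of them, with 13.2, 12.2 and 13.4 scaled FPKM in RNPs. *Adam26b*, a member of the ADAM metalloprotease family, had 13.4, 16.7 and 12.4, and *Ralyl*, an RNA-binding protein related to RALY, had 24.1, 21.4 and 40.1. *Naprt1*, which starts NAD synthesis from nicotinate, had 21.6, 12.6 and 9.87. Of the 16 genes called lower and listed at 0 in polysomes, 13 had no assembled transcript of any kind over their exons in the 3 polysome libraries, and 2 had unspliced pieces in all 3 of them.

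On the polysome side abundant genes called with both values included those of a nuclear protein and a ubiquitin ligase. *Ptma*, the small acidic nuclear protein prothymosin alpha, had 208, 326 and 251 scaled FPKM in polysomes, against 38.9, 48.2 and 51.8 in RNPs (2.46 ± 0.24 SE, adjusted p = 0.0226 from limma). *Arih2*, a ubiquitin ligase, had 143, 144 and 149 in polysomes, against 33.9, 27.6 and 34.6 in RNPs (2.15 ± 0.18 SE, adjusted p = 0.0199 from limma). The fractions did not overlap for either gene. The length-weighted fold changes were 1.39 for *Ptma* and 0.60 for *Arih2*, both called (adjusted p = 0.0195 and 0.0398 from limma). With the whole intron chain required the direction of both turned.

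*Ttll5*, an enzyme that adds glutamate chains to tubulin, had 129, 152 and 129 scaled FPKM in polysomes, against 54.3, 36.0 and 45.8 in RNPs (1.58 ± 0.22 SE, adjusted p = 0.0485 from limma). *Slc2a8*, a glucose transporter of the testis, had 63.2, 65.9 and 76.4 in polysomes, against 20.3, 18.2 and 23.9 in RNPs (1.67 ± 0.20 SE, adjusted p = 0.0340 from limma). *Mrpl15*, a protein of the mitochondrial ribosome, had 74.5, 65.7 and 82.5 in polysomes, against 31.0, 30.4 and 29.1 in RNPs (1.27 ± 0.18 SE, adjusted p = 0.0498 from limma). In each of these genes the lowest polysome value was above the highest RNP value, but with the whole intron chain required the direction turned for *Ttll5* and *Slc2a8*. *Rbm7*, which guides the nuclear exosome to its RNAs, had 17.8, 32.1 and 31.2 in polysomes and was listed at 0 in all RNP libraries by both gene values.

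Some genes were called in spliced FPKM and not in length-weighted FPKM. *Nf1*, which encodes neurofibromin, a brake on Ras, had 114, 222 and 172 scaled FPKM in polysomes, against 34.3, 29.7 and 38.5 in RNPs (2.23 ± 0.29 SE, adjusted p = 0.0447 from limma), but its length-weighted fold change was 0.66 (adjusted p = 0.121 from limma). *Tmem232*, a transmembrane protein gene, had 158, 172 and 153 in polysomes, against 57.3, 45.7 and 50.0 in RNPs (1.64 ± 0.18 SE, adjusted p = 0.0271 from limma, and 0.44 with 0.0835 length-weighted). *Cux1*, on the other side, had 38.8, 35.6 and 45.0 in polysomes, against 144, 155 and 183 in RNPs (-1.99 ± 0.19 SE, adjusted p = 0.0226 from limma, and -0.47 with 0.0622 length-weighted). For *Immt*, a scaffold of mitochondrial cristae, the values were 52.3, 56.3 and 48.2 in polysomes, against 130, 142 and 150 in RNPs (-1.41 ± 0.17 SE, adjusted p = 0.0396 from limma, and -0.21 with 0.285 length-weighted). In these 4 genes the spliced values of the fractions did not overlap, while the pieces that overlap their exons were nearer to balance. With the whole intron chain required the direction turned for *Cux1* and *Immt*.

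**Figure D2:**
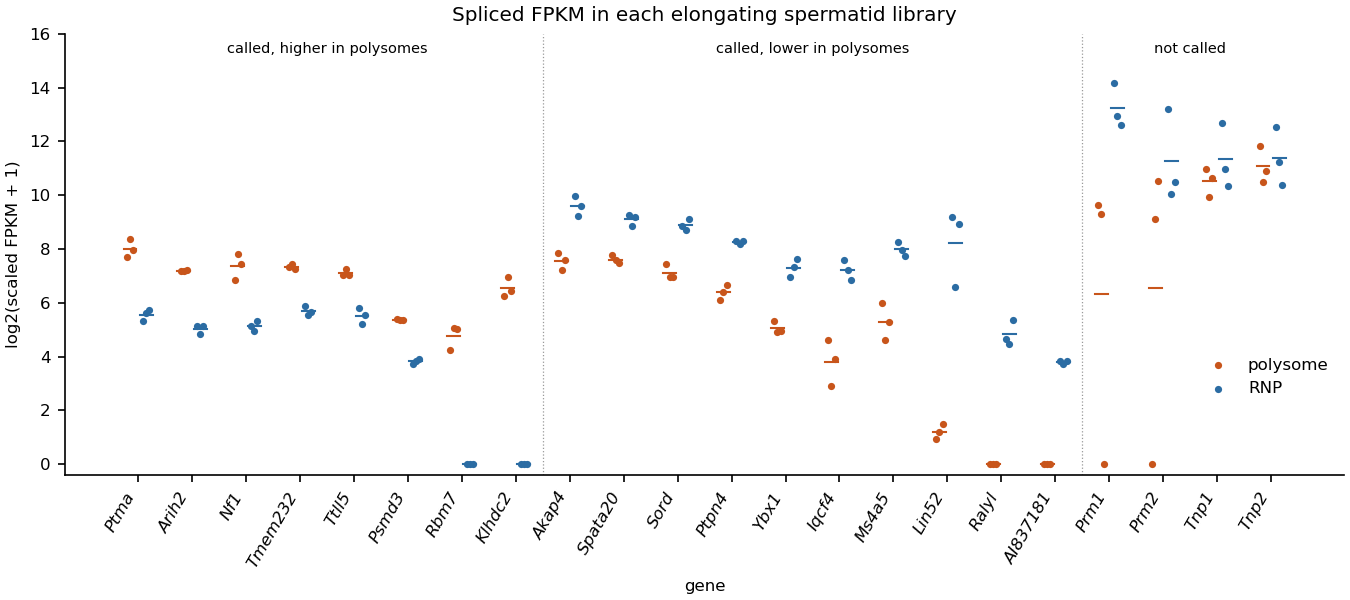
Log2 of the scaled FPKM plus 1 (vertical) of 22 genes in each of the 3 polysome (orange, left of each pair) and 3 RNP (blue, right) libraries, with horizontal bars at the mean of 3. *Ptma* lies between 208 and 326 scaled FPKM in polysomes and between 38.9 and 51.8 in RNPs, *Akap4* lies between 147 and 231 in polysomes and between 600 and 1009 in RNPs, and *Tnp1* and *Tnp2* overlap between the fractions.

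Among the genes higher in polysomes were 4 neighbours on chromosome 12, and there the 2 gene values disagreed. *Klhdc2*, a substrate receptor of a ubiquitin ligase, had 75.1, 123 and 86.0 scaled FPKM in polysomes and was listed at 0 in all 3 RNP libraries. *1110034A24Rik* had 41.3, 43.8 and 40.2, *Pole2*, a subunit of DNA polymerase epsilon, had 24.2, 25.1 and 61.8, and *Nemf*, of ribosome quality control, had 10.7, 12.5 and 10.03, each listed at 0 in all RNP libraries. The 4 genes lie within 171 kb, from 70286878 to 70458153. In all 9 RNP libraries of the series, the other cell types included, no spliced transcript of any of them was assembled, whereas *Klhdc2*, *Pole2* and *1110034A24Rik* were assembled in all 9 polysome libraries and *Nemf* in 8.

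Over the exons of these genes the RNP libraries held unspliced pieces instead. The RNP libraries held 10, 11 and 13 single-exon transcripts over the exons of *Klhdc2*, with a median length of 107 to 114 nucleotides, and 19, 12 and 21 over those of *Nemf*, while the polysome libraries held 0, 1 and 0 over *Klhdc2* and none over *Nemf*. In length-weighted FPKM *Klhdc2* had 10.3, 14.5 and 13.2 in polysomes, against 140, 603 and 176 in RNPs (-4.19, adjusted p = 0.0195 from limma), and *Nemf* had 10.3, 11.1 and 8.92, against 335, 126 and 467 (-4.62, adjusted p = 0.0121 from limma). The direction of both genes is therefore the opposite of that in spliced FPKM, and *1110034A24Rik* had -0.13 (adjusted p = 0.684 from limma). *Pole2* was higher in polysomes by both values (1.58 length-weighted, adjusted p = 0.0306 from limma). The annotation places a noncoding gene of 297 bases, class misc_RNA, on each side of the 4 genes, from 70260282 to 70260578 and from 70462172 to 70462468. Whether RNA of these neighbours is part of the single-exon pieces was not tested.

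**Figure D3:**
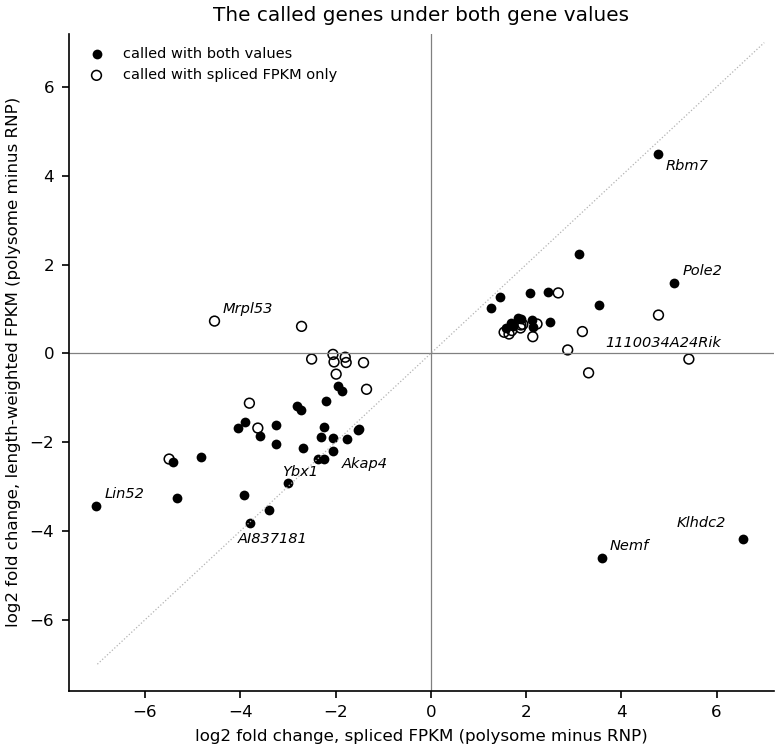
Log2 fold change (polysome minus RNP) in length-weighted FPKM (vertical) against that in spliced FPKM (horizontal) for the 73 called genes that have both. Filled circles are genes called with both values, open circles those called with spliced FPKM only, and the dotted line marks equal values. Genes listed at 0 in 1 fraction are drawn at their fitted value, which depends on the added 1. *Klhdc2* and *Nemf* lie at the lower right, at -4.19 and -4.62 on the vertical axis, and *Rbm7* lies near the line.

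The mRNAs of the protamines and transition proteins, the textbook case of storage in RNPs, were not called in spliced FPKM. *Prm1*, which encodes protamine 1, had 802, 637 and 0 scaled FPKM in polysomes, against 18392, 7808 and 6266 in RNPs. Every RNP value lay above every polysome value, yet with the 0 in polysome replicate 3 the difference was -6.92 ± 2.59 SE on the log2 scale (adjusted p = 0.228 from limma). In length-weighted FPKM *Prm1* had 620, 465 and 1364 in polysomes, against 19409, 8218 and 6107 in RNPs, and the difference was called (-3.76, adjusted p = 0.0300 from limma).

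The assembly of this locus differed between the fractions. In each polysome library 1 transcript of 4 or 5 exons and 3196 to 8157 nucleotides ran across *Prm2* and *Prm1*, and in the RNP libraries *Prm1* was a transcript of its own of 515 to 1259 nucleotides with 2 exons. A joined transcript was counted for 1 gene only, so *Prm2*, which encodes protamine 2, had 0, 546 and 1485 in polysomes, against 9480, 1052 and 1451 in RNPs (adjusted p = 0.402 from limma). The scaled FPKM of all spliced transcripts over the 2 genes summed to 802, 1183 and 1485 in polysomes, against 27872, 8861 and 7717 in RNPs, a sum formed after the values were seen. FPKM divides by the length of the transcript, so a long joined transcript and a short one are not on an equal footing. Joined transcripts of this kind made up 0.359% to 0.429% of the matched transcripts in polysomes and 0.240% to 0.306% in RNPs.

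The transition proteins, which take the place of histones before the protamines do, did not separate the fractions. *Tnp1* had 1998, 973 and 1591 scaled FPKM in polysomes, against 6605, 2015 and 1288 in RNPs (-0.82 ± 0.66 SE, adjusted p = 0.528 from limma). *Tnp2* had 3606, 1443 and 1929 in polysomes, against 5991, 2400 and 1319 in RNPs (-0.31 ± 0.64 SE, adjusted p = 0.820 from limma). RNP replicate 1 was the highest library for all 4 of these genes and RNP replicate 3 the lowest RNP library for *Tnp1* and *Tnp2*.

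Other abundant spermatid mRNAs lay on both sides without passing the test. *Oaz3*, the antizyme of spermatids, had 2564, 1334 and 1611 scaled FPKM in polysomes, against 799, 967 and 1042 in RNPs (0.92, adjusted p = 0.200 from limma). *Ldhc*, the lactate dehydrogenase of sperm, had 2463, 2312 and 2135, against 1630, 1551 and 1842 (0.46, adjusted p = 0.328 from limma). *Meig1*, needed to build the manchette and tail, had 1160, 926 and 760, against 1877, 1519 and 1774 (-0.88, adjusted p = 0.160 from limma), and was called in length-weighted FPKM (-1.24, adjusted p = 0.0443 from limma). Of the outer dense fibre genes, *Odf1* overlapped between the fractions (1062, 554 and 662 in polysomes, against 1186, 659 and 773 in RNPs) and *Odf2* did not (991, 422 and 415, against 1453, 1102 and 1218, -1.16, adjusted p = 0.199 from limma).

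None of the 26 functional lists held more than 1 called gene. Of 17 elongating spermatid genes, 13 had a negative log2 fold change, against 48% of all genes tested, 5 lay wholly lower (29.4%, against 11.7% of all genes) and 2 wholly higher in polysomes (11.8%, against 16.1%), and *Akap4* was the only one called. Their median was -0.31, and -0.46 in length-weighted FPKM. Of 10 genes of nuclear condensation 9 were negative (median -0.46, but 0.02 in length-weighted FPKM), and only 1 lay wholly lower (10%, against 11.7%). *Prm1* is a member of this list and of the elongating spermatid genes, so the lists are not independent. Of 15 glycolysis genes of sperm, 11 were negative and 5 lay wholly lower (33.3%, against 11.7%, median -0.35, and -0.42 length-weighted). As the same libraries in FPKM as deposited put the median of all genes at 0.81, the medians of these 3 lists there were 0.60, 0.34 and 0.54, positive but below that of all genes.

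Genes of the cytoplasmic ribosome were shifted most among the functional lists. Of 81 ribosomal protein genes 67 were negative, 35 lay wholly lower in polysomes (43.2%, against 11.7% of all genes), 2 lay wholly higher, and none was called. Their median was -0.62 (0.28 in FPKM as deposited, against 0.81 for all genes, and -0.50 after quantile normalization). *Rps27*, of the small subunit, had 180, 169 and 296 scaled FPKM in polysomes, against 1556, 888 and 760 in RNPs (-2.28 ± 0.37 SE, adjusted p = 0.0719 from limma, and -2.37 with 0.0265 length-weighted). *Rps29* had 455, 190 and 457 in polysomes, against 5734, 2033 and 1350 in RNPs (-2.88 ± 0.63 SE, adjusted p = 0.115 from limma, and -2.94 with 0.0435 length-weighted). *Rps29*, which ends at 70260173 on chromosome 12, is the next gene to 1 of the misc_RNA genes above. Ribosomal protein genes have many processed copies, whose part in these values was not tested.

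The proteasome list lay on the other side. Of 42 genes 32 were positive, against 52% of all genes, 16 lay wholly higher in polysomes (38.1%, against 16.1%), and 1 was called, with a median of 0.36 (1.22 in FPKM as deposited, against 0.81 for all genes). *Psmd3*, a subunit of the regulatory particle, had 40.7, 39.6 and 40.2 scaled FPKM in polysomes, against 12.1, 13.4 and 14.1 in RNPs (1.54 ± 0.18 SE, adjusted p = 0.0340 from limma, and 0.48 with 0.0527 length-weighted). The nuclear genes of the respiratory chain had 51 of 77 positive (median 0.21), and *Cox4i1* of complex IV had 340, 448 and 395 in polysomes, against 208, 206 and 203 in RNPs (0.92, adjusted p = 0.103 from limma, and 0.85 with 0.0350 length-weighted). Initiation and elongation factors had 28 of 47 positive (median 0.16). RNA-binding proteins of storage and translation had 12 of 29 positive (median -0.03), with *Ybx1* the only call in spliced FPKM. Yet 8 of the 29 lay wholly higher in polysomes (27.6%, against 16.1%) and 4 wholly lower (13.8%, against 11.7%). In length-weighted FPKM 3 of the 29 were called higher and 1 lower, against 3.15% and 3.7% of all genes.

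Genes of the tail and acrosome were mixed. The axoneme and manchette list had 19 of 29 positive (median 0.25, but -0.09 in length-weighted FPKM), and *Rsph1*, of the radial spoke head, had 608, 598 and 581 scaled FPKM in polysomes, against 250, 218 and 282 in RNPs (1.26, adjusted p = 0.0609 from limma, and 1.10 with 0.0255 length-weighted). In length-weighted FPKM 27 genes of that list were tested, with 1 called higher, *Rsph1*, and 4 called lower, against 3.15% and 3.7% of all genes. The 4 were the dynein heavy chain genes *Dnahc6* (-0.88), *Dnahc7b* (-0.91), *Dnahc8* (-1.50) and *Dnahc12* (-1.25). In spliced FPKM none of them was called, and *Dnahc6* (0.18), *Dnahc7b* (-0.89) and *Dnahc8* (-0.73) overlapped between the fractions. *Dnahc12* (-1.22) lay wholly lower in polysomes. Of 23 ion channels and motility kinases 15 were positive (median 0.28), 5 lay wholly higher (21.7%, against 16.1% of all genes) and 3 wholly lower in polysomes (13.0%, against 11.7%). The 5 were *Camk4*, *Catsperg1*, *Ppp1cc*, *Ppp3cc* and *Prkaca*, with log2 fold changes of 0.56 to 0.94 and none called. The 3 were *Catsperg2* (-0.83), *Atp1a4* and *Catsperb*. In length-weighted FPKM *Catsperg1* turned to -0.61 and was called lower (adjusted p = 0.0434 from limma). *Catsperg2* was called lower there too (-0.72, adjusted p = 0.0408 from limma). By that value 0 of the 23 were called higher and 4 lower, against 3.15% and 3.7% of all genes. *Atp1a4*, the sodium pump of sperm, had 105, 62.1 and 110, against 484, 689 and 236 (-2.25, adjusted p = 0.0994 from limma, and -2.56 with 0.0107 length-weighted), and *Catsperb*, an auxiliary subunit of the sperm calcium channel, had 68.0, 52.1 and 59.3, against 208, 326 and 144 (-1.83, adjusted p = 0.0861 from limma, and -1.64 with 0.0471 length-weighted). Of 25 acrosome genes 18 were positive (median 0.26). Of the replication-dependent histone genes, which mostly lack introns, *Hist1h2bp* alone was tested, and no mitochondrially encoded gene was, so these lists are not described.

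**Figure D4:**
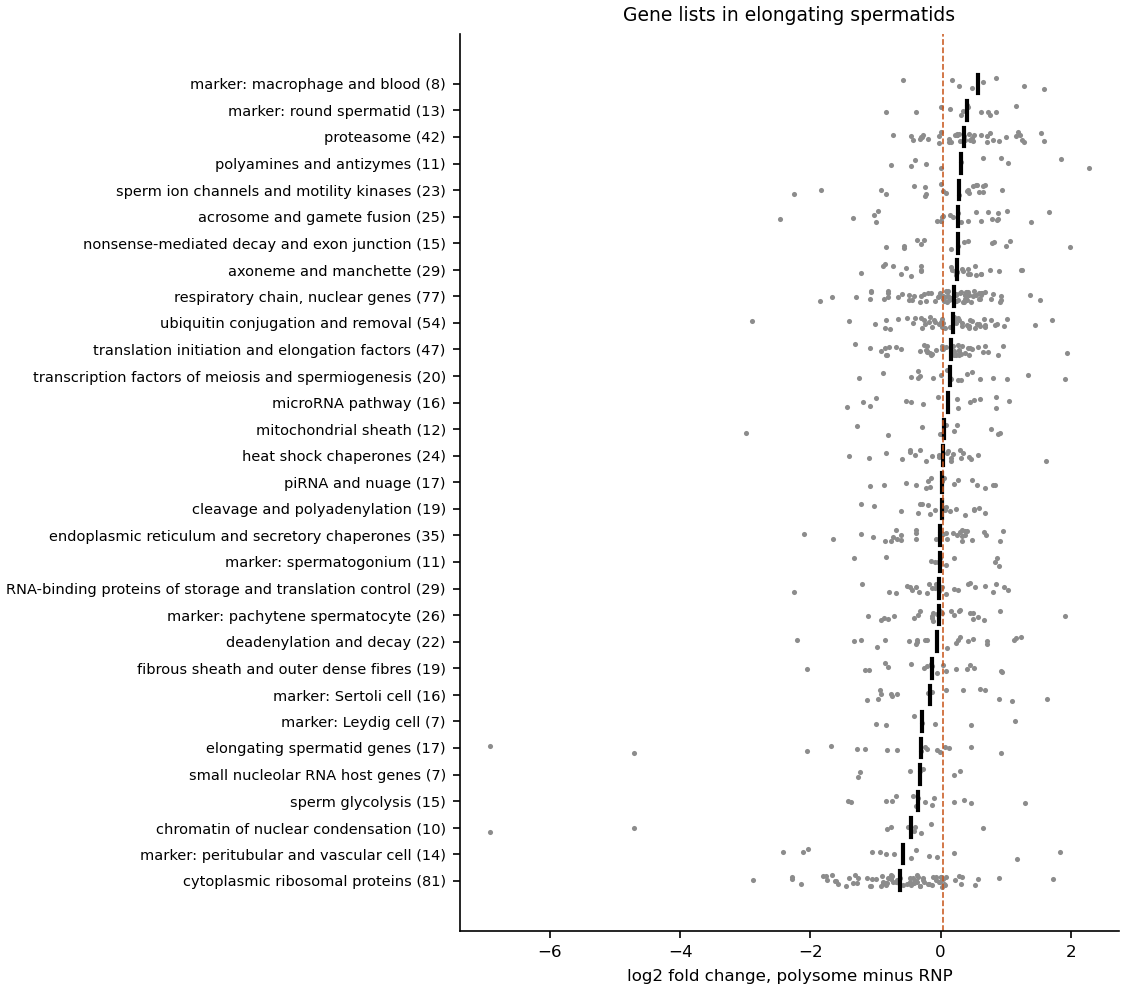
Log2 fold change (polysome minus RNP, horizontal) of the members of 31 gene lists in elongating spermatids (dots), with the number tested in parentheses, the list median as a bar and the median of all genes, 0.04, as a dashed line. Lists run from cytoplasmic ribosomal proteins (median -0.62) at the bottom to macrophage and blood markers (0.57) at the top.

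The 17 elongating spermatid genes were abundant, with summed scaled FPKM of 10041 to 15692 in polysomes and 17620 to 48698 in RNPs. Many such mRNAs are made earlier, as described above, so their level does not by itself identify the cell type. Transcripts of other germ cells were present, with sums over 26 pachytene spermatocyte markers of 1457 to 1545 in polysomes and 1455 to 1661 in RNPs. Round spermatid markers summed to 2331 to 3313 in polysomes and 2128 to 2193 in RNPs, and 11 of 13 were positive (median 0.41). Sertoli markers summed to 96.9 to 128 in polysomes and 81.8 to 145 in RNPs with 9 markers, *Sox9* and *Gata4* among them, listed at 0 throughout, as were 2 ribosomal protein genes. Leydig markers summed to 33.8 to 85.0 in polysomes and 37.2 to 50.3 in RNPs. The Sertoli marker *Clu*, which encodes clusterin, had 4.11, 6.06 and 3.50 in polysomes, against 9.88, 10.2 and 8.26 in RNPs (-0.93, adjusted p = 0.170 from limma, and 0.0381 length-weighted). To check its gradient fractions the study took *Clu* as a ubiquitous gene without delayed translation and *Tnp2* as one with delay. Here, at low values, *Clu* lay wholly lower in polysomes, and *Tnp2* overlapped between the fractions. Peritubular and vascular markers summed to 133 to 210 in polysomes and 288 to 356 in RNPs (11 of 14 negative, median -0.58, none called). *Actg2*, the most abundant of them, had 76.9, 66.0 and 79.4 in polysomes, against 140, 120 and 138 in RNPs. The 3 positive ones included *Myl9*, with 18.6, 20.8 and 9.81 against 8.17, 6.75 and 4.75. Whether the *Actg2* RNA came from peritubular or vascular cells was not tested. The part of these cells in the genes lower in polysomes was not tested. In bulk RNA, fewer cells of a type and less RNA per cell cannot be told apart.

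The called genes were compared with all genes in features that were not terms of the test. Length and exons can still enter the gene value, since FPKM divides by transcript length and a value needs a shared junction. The 44 and 43 called genes include 23 and 16 that passed the filter only through the fraction where they are high. The medians below are therefore not independent evidence. The annotated mRNAs of the 21 genes higher in polysomes with a known intron chain had a median 3′ UTR of 605 nucleotides (quartiles 364 and 1014), those of the 23 genes lower in polysomes 768 (306 and 2101), and all 7459 such genes 687 (250 and 1622). The quartiles overlap broadly. Coding length had a median of 1434 nucleotides in the genes higher in polysomes, 1968 in those lower and 1158 in all. The genes higher in polysomes had a median of 13 exons, those lower 9 and all genes 10. X-linked genes numbered 0 of 44 higher and 4 of 43 lower (9.30%, against 3.24% of all genes). Of these 4, *Gm14661*, *3110007F17Rik* and *Ssxb5* were listed at 0 in all polysome libraries, and only *Akap4* had a value in both fractions. Genes of chromosome 12 numbered 7 of 44 higher (15.9%, against 3.48%), 4 of them the neighbours described above, which were listed at 0 in all RNP libraries.

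Over all annotated mRNAs of a library, weighted by FPKM, the mean 3′ UTR (geometric) was 295, 292 and 289 nucleotides in the polysome libraries, against 220, 266 and 285 in the RNP libraries. All 3 RNP values lay below the polysome values, with a log2 difference of 0.19 (exact permutation test, two-sided, p = 0.1, the smallest that 3 against 3 allow, so that no such test can pass 0.05). RNP replicate 1 lay farthest from the polysome libraries and RNP replicate 3 nearest, and without RNP replicate 1 the difference was 0.08. The mean spliced length was 1419, 1538 and 1450 in polysomes, against 1083, 1322 and 1414 in RNPs (0.21, exact permutation p = 0.1), and 0.10 without RNP replicate 1. With the 10 most abundant genes left out the fractions overlapped in both measures (exact permutation p = 0.2 and 0.4). Without weights the 3′ UTR difference was 0.096 (exact permutation p = 0.1). That of spliced length was 0.035, and the fractions overlapped (exact permutation p = 0.2). With the assembled in place of the annotated transcripts the differences were 0.35 and 0.27 (exact permutation p = 0.1 for each). The transcripts used for lengths hold 40.2% to 44.5% of the matched FPKM in polysomes and 41.0% to 43.8% in RNPs. Each has the whole intron chain of an annotated mRNA, so the joined transcripts over *Prm2* and *Prm1* in polysomes were left out. The separate *Prm1* transcripts of the RNP libraries, at 18392, 7808 and 6266 scaled FPKM, were included. The part of *Prm1* alone in the length differences was not tested.

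The same fractions of pachytene spermatocytes and round spermatids share no library with those of elongating spermatids. In the fit of all 18 libraries 10 genes were higher (0.0721%) and 2 lower in polysomes of pachytene cells, 0.0865% in all, and there were as many of each in round cells (0.0721% and 0.0865%). Of the 44 genes higher in polysomes of elongating spermatids, 39 were also higher in pachytene polysomes (88.6%, against 62.0% of all genes with the same sign in both) and 36 in round polysomes (81.8%, against 64.0%). Of the 43 genes lower in polysomes, 27 were also lower in pachytene (62.8%, against 62.0%) and 36 in round cells (83.7%, against 64.0%). The 44 include 23 genes listed at 0 in all elongating RNP libraries, and the 43 include 16 listed at 0 in all elongating polysome libraries. Those genes passed the filter only through the fraction where they are high, so these shares are not independent evidence. The shares without them were not computed. *Akap4* had log2 fold changes of -2.51 in pachytene and -1.11 in round cells, *Ybx1* of -1.50 and -1.65, and *Iqcf4* of -3.26 and -3.57. *Lin52* had -1.11 and -0.37, and *Cux1* 0.68 and 0.79, the opposite sign to elongating spermatids. No called gene differed between elongating spermatids and either of the other cell types when the difference itself was tested in all 18 libraries (lowest adjusted p = 0.0634 against pachytene and 0.0845 against round cells, limma). The genes were chosen on the elongating difference, which that test contains.

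**Figure D5:**
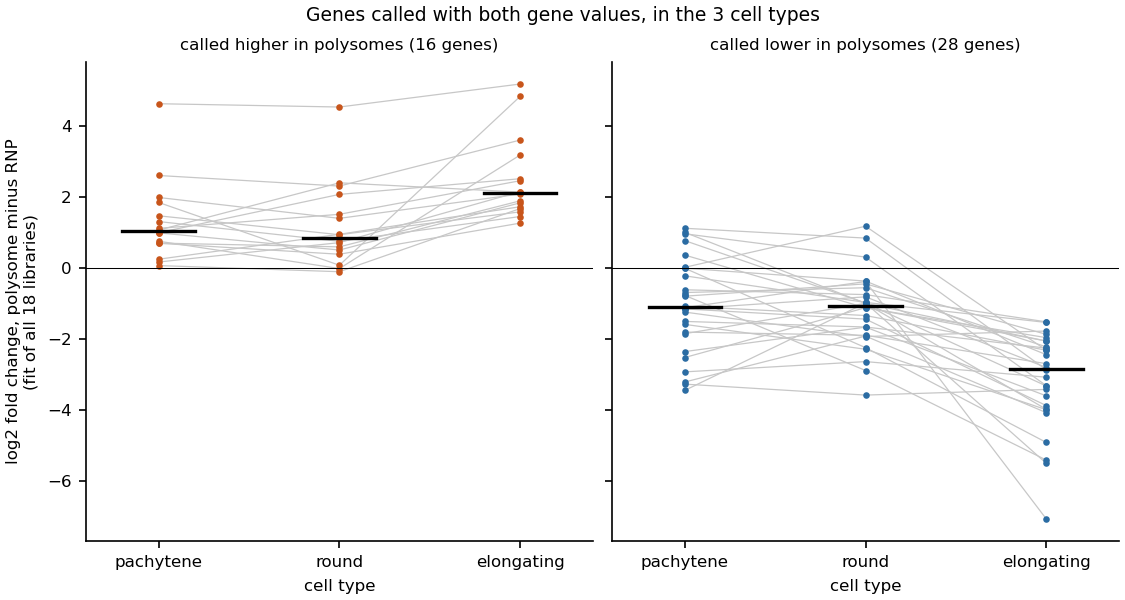
Log2 fold change (polysome minus RNP, vertical, from a fit of all 18 libraries) by cell type (pachytene, round, elongating) for the 16 genes called higher (left) and the 28 called lower (right) with both gene values. Lines join the values of 1 gene and bars mark medians, which in cell order are 1.04, 0.85 and 2.12 for the genes higher in polysomes and -1.09, -1.05 and -2.83 for those lower. The genes were chosen by their values in elongating spermatids, and 4 of the 16 and 13 of the 28 were listed at 0 there in the other fraction.

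Over all 13872 genes of that fit, the difference between fractions was lower in elongating than in pachytene cells for 2 genes (0.0144%) and higher for 0, and it differed from round cells for 0 genes (0%). At an unadjusted p under 0.05 there were 511 (3.68%) and 381 (2.75%) genes. *AY358078*, 1 of the 2, had 6.37, 4.11 and 2.95 scaled FPKM in elongating polysomes, against 10.2, 6.27 and 8.37 in elongating RNPs. In pachytene cells it had 1103, 351 and 1269 in polysomes, against 13.6, 13.7 and 19.9 in RNPs, and the log2 fold changes differed by -6.37 ± 0.63 (SE, adjusted p = 0.000283 from limma).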

How the data were processed

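RNA of the polysome and RNP fractions of each cell type was sequenced in 3 libraries. Per the labels and the study's methods, the authors used the FASTX-Toolkit for trimming, TopHat2 for alignment (mm9) and Cufflinks for the assembly, which was made for each library alone. No further versions are given in the sources used here. The deposited files list transcripts and exons with, in a text column of mixed content (unit other), an FPKM, a coverage and a transcript name. The authors did no normalization between libraries in these files, and a transcript that was not assembled is missing and was set to 0.

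Transcripts were matched to GENCODE vM1 (mm9) by strand and shared splice junction, summed by gene and divided by median-ratio factors. Genes at 1 FPKM or more in at least 3 libraries were tested with limma 3.58.1 (trend) in R 4.3.3 on log2(scaled FPKM + 1), so that fold changes of low genes are understated, with Benjamini-Hochberg adjustment at 0.05. Library values were compared by exact permutation. Differences between cell types were tested as interactions over all 18 libraries. Scripts used Python 3.11.15, numpy 2.4.6, pandas 2.3.3, scipy 1.17.1 and matplotlib 3.10.9, and the test was checked on simulated data. The alternatives were no scaling, quantile normalization, other filters and pseudocounts, robust limma, a replicate block, a fit of all 18 libraries, other gene values and leaving out each library.

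Genes were named by rule: up to 15 called genes in each direction by fold change with a mean of at least 10 in the higher fraction and no overlap, up to 6 members of each list by level and each called member, genes the study names, and the 10 most abundant genes of each fraction. Other genes, such as neighbours on chromosome 12, were chosen after their values were seen. The comparison, the 26 functional lists and the 7 marker lists were chosen with earlier results of these data known.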

Additional observations from a re-analysis of the deposited data

Results flagged for a closer look

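The fraction difference of *AY358078* (chromosome 14) was lower in elongating than in pachytene cells by 6.37 on the log2 scale (interaction -6.37, standard error 0.63, adjusted p = 0.000283 from limma), with the values given above. In elongating spermatids alone its log2 fold change was -0.79 (adjusted p = 0.661 from limma), and in pachytene cells all 3 polysome libraries lay above all 3 RNP libraries. *Churc1*, named for a zinc-binding domain, had an interaction of -4.76 (standard error 0.68, adjusted p = 0.0201 from limma). It was listed at 0 in all 12 elongating and round libraries and in the pachytene RNP libraries, against 20.1, 67.7 and 12.7 scaled FPKM in the pachytene polysome libraries, so that it passed the filter only through those 3 libraries and gives no test of the elongating fractions.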

How the results depend on the processing

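The counts of genes higher and lower in polysomes (44 and 43) were 2516 and 76 in FPKM as deposited, 22 and 27 after quantile normalization, 36 and 23 without a filter on low values, 26 and 30 with a floor of 5 FPKM, 61 and 53 with a pseudocount of 0.1, 22 and 18 in the fit of all 18 libraries, 33 and 23 with limma's robust option, 346 and 406 with length-weighted FPKM, and 192 and 114 when the whole intron chain was required. Leaving out 1 library gave 0 to 37 genes higher and 0 to 13 lower. With the replicate number as a block 0 genes were higher and 0 lower. Deviations from the group means correlated by 0.065, 0.031 and 0.012 between same-numbered libraries of the fractions. Between differently numbered libraries they correlated by -0.043 to 0.015. These values cannot tell whether same-numbered libraries share a purification. The 2 genes that differed between elongating and pachytene cells became 6 without the round libraries numbered 2 and 1 with a replicate block within cell type, and the 0 that differed from round cells became 2 without those libraries.

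All 87 called genes kept their direction without scaling, after quantile normalization, without a filter, with the other pseudocount, in the fit of all 18 libraries, with the block and with the robust option. Of them 78, 48, 59, 86, 27, 0 and 56, in that order of settings, stayed called. For the 39 genes listed at 0 in all 3 libraries of 1 fraction the direction could not turn under these settings. Length-weighted FPKM reversed 6 of 73, *Klhdc2* (-4.19), *1110034A24Rik* (-0.13), *Nemf* (-4.62), *Gm16347* (-0.44), *Mrpl53* (0.73) and *Mon1b* (0.61). The whole intron chain reversed 13 of 28, *Mrps7* (2.23), *Pde6h* (0.15), *Klhdc10* (3.62), *Smek1* (-3.36), *Vapb* (-3.24), *Ttc35* (-3.99), *Cux1* (0.92), *Immt* (5.28), *Ptma* (-5.58), *Ttll5* (-4.88), *Slc2a8* (-4.26), *Arih2* (-4.75) and *Rtel1* (-3.13). The cause was not tested. The log2 difference of 3′ UTR length ranged over 0.08 to 0.27, and that of spliced length over 0.10 to 0.29, when 1 library was left out. The files hold no read counts, so they do not show whether a value of 0 reflects few reads or none.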
